A study of Mus musculus with 16 samples.

Results

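The genes described here encode enzymes, activator proteins and membrane proteins of the lysosome, with the transcription factors Tfeb and Tfe3 that control many of them. They were chosen as a list of 39 gene symbols, with the cathepsin proteases left out and with earlier results of these data known. Each symbol was matched to the gene name given in the count table. All 39 were among the 55385 genes of the table, and all 39 were among the 17132 genes that passed the filter on low counts. Atp6v0d2 passed it only through its counts in the mice with amyloid transgenes. By role they were 11 glycosidases, 5 sulfatases, 4 lipid hydrolases, 3 activators and cofactors, 3 peptidases and thioesterases, 7 membrane proteins, 4 subunits of the proton pump and 2 transcription factors. None lies in the triplicated segment of the Dp16 mouse.

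Polyadenylated RNA of the hippocampus was sequenced from mice aged 9 months in 4 groups of 4 libraries, each group with 2 females and 2 males. 5xFAD-Dp16 mice carry both the 5xFAD transgenes and the Dp16 duplication, 5xFAD mice carry the transgenes alone, Dp16 mice carry the duplication alone, and WT mice are C57BL/6J. 5xFAD transgenes are human genes with familial Alzheimer mutations, expressed in neurons from Thy1 promoter sequences, and the mice form amyloid plaques. In Dp16 mice, a model of Down syndrome, a stretch of chromosome 16 that is syntenic to much of human chromosome 21 is duplicated. The groups set together below as amyloid carriers are 5xFAD-Dp16 and 5xFAD (8 libraries), and those set together as non-carriers are Dp16 and WT (8 libraries).

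Lysosomes break down macromolecules that reach them by endocytosis, phagocytosis and autophagy, using acid hydrolases in a lumen that the vacuolar proton pump keeps acidic. Most of these hydrolases remove single sugars, sulfates or fatty acids in a fixed order, and inherited loss of one of them causes a storage disease that often affects the brain. TFEB and TFE3 enter the nucleus when lysosomes are stressed or nutrients are short, and bind an E-box in the promoters of many lysosomal genes. In brain tissue every cell type has lysosomes, and microglia, the resident phagocytes that surround amyloid plaques, are rich in them.

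Gene counts summed to between 16922937 and 25308693 per library, and mitochondrial transcripts took 4.96% to 6.87% of them. The hippocampal genes Prox1, C1ql2 and Wfs1 were at 8.85 to 15.8, 32.2 to 85.5 and 24.8 to 57.7 RPKM (read counts divided by the library total and the gene's length) over the 16 libraries. Markers of the neighbouring thalamus were uneven: the mean log2 level of 11 such genes, set to 0 at the WT mean, was between 1.26 and 1.94 in 6 libraries and between -0.91 and -0.39 in the other 10. The 6 were 5xFAD-Dp16 1, 5xFAD 6, 13 and 15, Dp16 14 and WT 4, so 3 of the 4 5xFAD libraries were among them. A library is named by its genotype followed by its own number from the titles.

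On the RPKM scale the levels of the 39 genes spanned a wide range in WT hippocampus. Psap, which encodes the precursor of the saposins that present lipids to their hydrolases, was the highest at 568 ± 49 RPKM (SD, n = 4). Lamp1, an abundant glycoprotein of the lysosomal membrane, followed at 156 ± 12, and the pump subunits Atp6v1a and Atp6v0d1 stood at 127 and 116 RPKM. At the other end were Tfeb at 2.40 ± 0.29 RPKM and Atp6v0d2 at 0.00582 ± 0.012 RPKM. The order differed in 5xFAD hippocampus, where Laptm5 was at place 7 against place 15 in WT, Gusb at place 24 against 31, and Hexa at place 8 against 13, while Psap and Lamp1 held places 1 and 2 in both groups.

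TFEB binds a palindromic E-box with the core CACGTG. RefSeq promoter windows (GRCm38.p6), which run from 250 bases before to 50 bases after a start site, were held for 35 of the 39 genes as 41 windows, and 36 of these windows match an annotated transcript start on the gene's strand. The 4 genes with no window were Atp6v0d2, Asah1, Atp6v1h and Galns. The 7-letter form TCACGTG, searched on both strands, was present in 11 of the 41 windows (26.8%) and in 3.77% of all 32851 windows. The core alone, which the 7-letter form contains, was present in the same 11 windows and in 7.15% of all windows.

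Of the 11 genes with the 7-letter form, 4 are among those called higher in amyloid carriers below (Lamp1, Cln3, Naglu and Glb1), out of 17 such genes with a window. The other 7 are among 18 genes with a window that were not called (Mcoln1, Atp6v0d1, Gaa, Sgsh, Arsa, Atp6v1a and Gla). Stretches around the E-boxes of those 4 genes are printed 5′ to 3′ on the gene's strand, followed by those of Mcoln1 and Atp6v1a for comparison, since both have the motif and neither was called. Capitals mark each core CACGTG, with the letters T and then G before it and A and then C after it where they are present.
Lamp1, chr8:13159073-13159160, plus strand: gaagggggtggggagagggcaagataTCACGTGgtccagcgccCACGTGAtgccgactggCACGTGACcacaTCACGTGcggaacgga
Cln3, chr7:126583325-126583412, minus strand: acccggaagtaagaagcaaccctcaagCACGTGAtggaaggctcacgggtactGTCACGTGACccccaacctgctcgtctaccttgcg
Naglu, chr11:101069994-101070053, plus strand: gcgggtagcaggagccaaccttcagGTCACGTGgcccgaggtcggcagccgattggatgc
Glb1, chr9:114401003-114401062, plus strand: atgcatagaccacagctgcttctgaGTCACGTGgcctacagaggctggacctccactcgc
Mcoln1, chr8:3500421-3500506, plus strand: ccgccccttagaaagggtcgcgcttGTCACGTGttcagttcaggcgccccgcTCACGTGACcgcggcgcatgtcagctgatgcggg
Atp6v1a, chr16:44139358-44139417, minus strand: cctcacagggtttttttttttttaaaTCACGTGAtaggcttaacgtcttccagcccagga

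The Lamp1 window held 4 cores within 61 bases of its start site, and the Cln3 and Mcoln1 windows held 2 each. The windows of Gusb, Hexa, Grn, Man2b1, Laptm5 and Scpep1 held no core. A match describes letters in a window and is no evidence of binding.

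Amyloid carriers differed from non-carriers in the levels of many of these genes, and every difference that passed the test was a rise. The largest rises were in Laptm5, Gusb, Hexa, Grn, Man2b1 and Naglu, which stood between 1.87-fold and 3.08-fold higher, and in Atp6v0d2, which was close to absent without the transgenes. In all 19 of the 39 genes were called higher and 0 lower, where called means an adjusted p below 0.05 over all 17132 genes (edgeR quasi-likelihood test with Benjamini-Hochberg adjustment). Over all genes tested, 6.61% were called higher and 1.98% lower. The median log2 difference was 0.26 over the 39 genes and 0.01 over all genes tested. In 9 of the 39 genes every carrier library was above every non-carrier library, against 2.67% of all genes. The counts of called genes and of genes without overlap include Atp6v0d2, which passed the filter only through the carriers. Because the 39 genes were chosen with earlier results of these data known, the shares over all genes are set beside them as a description.

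The size of the rise fell into a higher and a lower range. 8 genes rose at least 1.5-fold, the smallest of these being Scpep1 at 1.55-fold, and the other 11 called genes rose between 1.17-fold and 1.35-fold. The 20 genes not called lay between -0.21 and 0.34 on the log2 scale, 11 above 0 and 9 below, and the 95% interval of 19 of them lay within 0.5 log2 units of 0. In bulk tissue, more cells of a type and more RNA per cell cannot be told apart. All 12 markers of microglial identity (among them Aif1, Cx3cr1 and P2ry12) were called higher in the same comparison, with a median log2 difference of 1.10, and none of the 12 was at 0 in any library. Their summed level was 608 to 734 CPM (read counts relative to the TMM-scaled library total) in 5xFAD-Dp16, 497 to 911 in 5xFAD, 293 to 392 in Dp16 and 317 to 385 in WT libraries. Their part in the rise of the lysosomal genes was not tested.

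**Figure D1:**
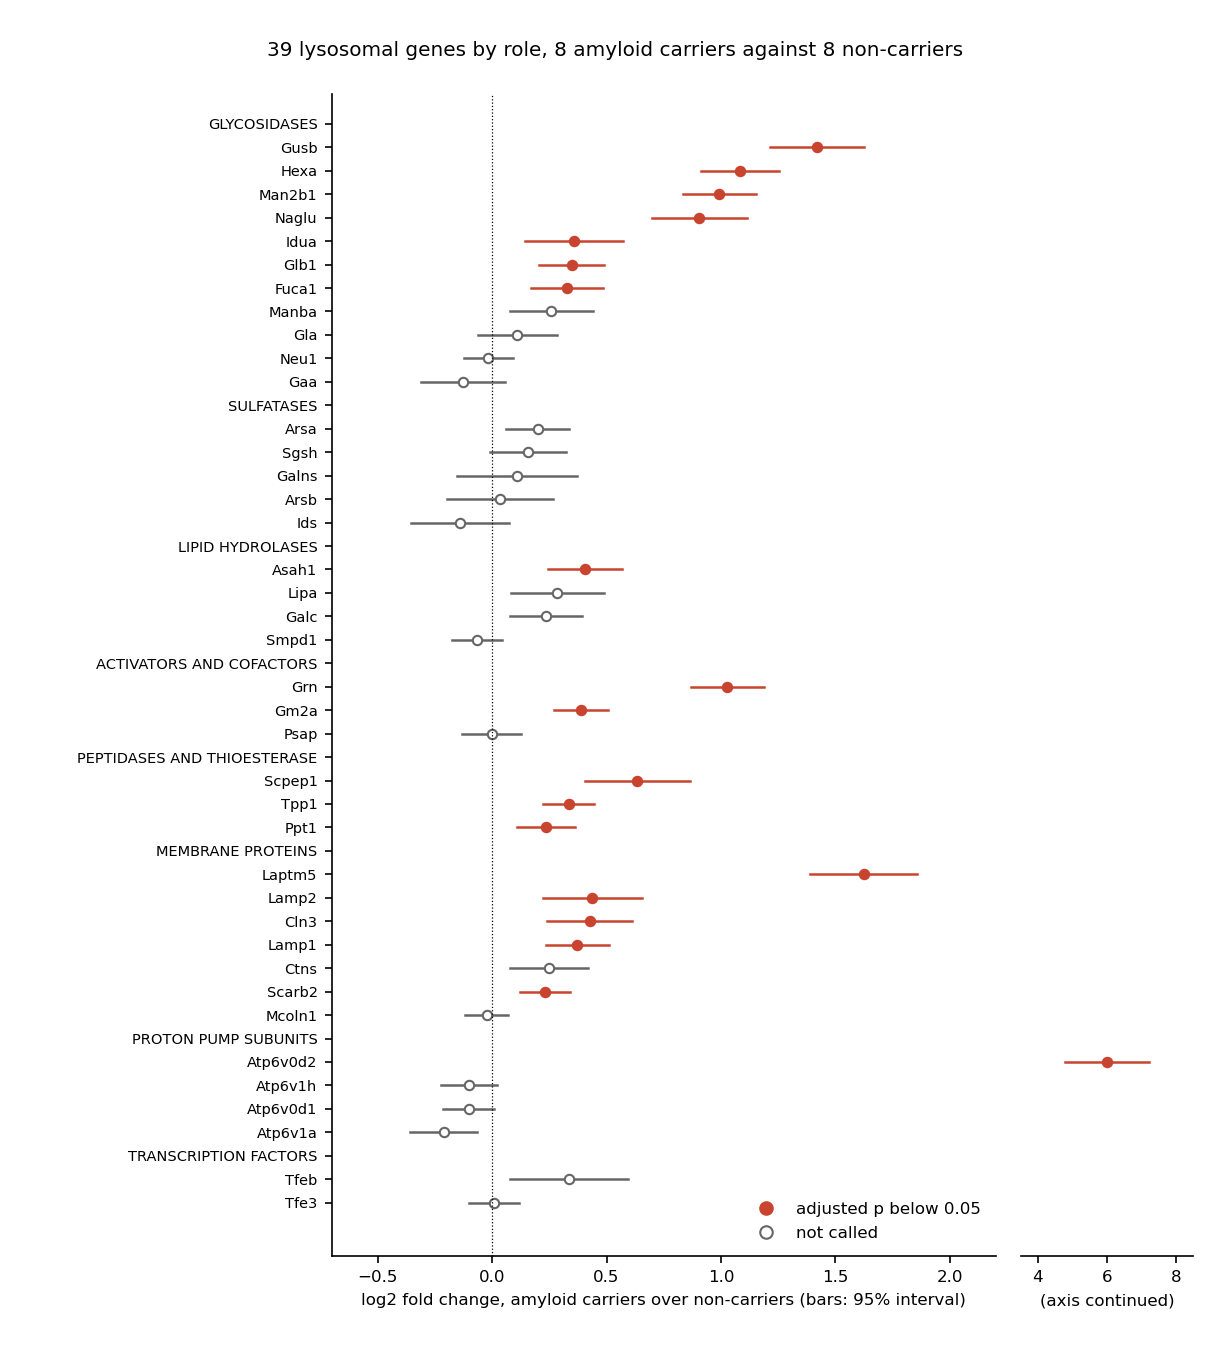
Log2 difference of each of the 39 genes (rows, grouped by role) between the 8 amyloid carriers and the 8 non-carriers, with its 95% interval as a bar; filled red points mark genes with an adjusted p below 0.05, and the axis is broken to show Atp6v0d2. Glycosidases and membrane proteins hold most of the called rises, and no gene was called lower.

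Glycosidases, which take sugars one by one from glycoproteins, glycolipids and glycosaminoglycans, were the role with the most called genes, 7 of 11. Gusb (beta-glucuronidase, chr5:129989011-130003049, minus strand, GRCm38) had 38.6, 29.9, 31.5 and 33.7 CPM in 5xFAD-Dp16 libraries and 53.2, 52.2, 52.4 and 29.7 CPM in 5xFAD libraries. It had 13.2, 14.8, 16.3 and 14.9 CPM in Dp16 libraries and 13.8, 14.8, 16.3 and 13.6 CPM in WT libraries. All 8 carrier libraries were above all 8 others, and within the 5xFAD group 3 libraries stood close together while 5xFAD 15 was well below them. The difference was 1.42 ± 0.10 on the log2 scale (SE), or 2.67-fold, with an adjusted p of 4.94e-08.

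Hexa, the alpha subunit of beta-hexosaminidase that degrades GM2 ganglioside (chr9:59539540-59565109, plus strand), had 117, 105, 104 and 113 CPM in 5xFAD-Dp16 and 164, 115, 127 and 89.7 CPM in 5xFAD libraries. It had 61.5, 61.1, 60.1 and 50.7 CPM in Dp16 and 49.0, 51.5, 56.1 and 47.9 CPM in WT libraries. The groups with and without the transgenes did not overlap, the 5xFAD libraries were the most spread, and the difference was 1.08 ± 0.08 (SE; 2.12-fold, adjusted p = 1.16e-07). Man2b1, lysosomal alpha-mannosidase (chr8:85083270-85098282, plus strand), had 106, 88.7, 83.0 and 93.9 CPM in 5xFAD-Dp16 and 108, 106, 115 and 77.1 CPM in 5xFAD libraries. Its Dp16 libraries had 47.6, 45.0, 48.0 and 43.5 CPM and its WT libraries 46.6, 46.9, 56.6 and 55.6 CPM. Carriers and non-carriers again did not overlap, and Man2b1 was 1.99-fold higher (0.99 ± 0.08, adjusted p = 1.49e-07).

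Naglu, which removes N-acetylglucosamine from heparan sulfate and whose promoter holds one of the E-boxes printed above (chr11:101070012-101077672, plus strand), had 17.9, 15.6, 12.9 and 18.8 CPM in 5xFAD-Dp16 and 22.1, 17.3, 22.0 and 18.4 CPM in 5xFAD libraries. It had 8.22, 9.09, 9.79 and 8.51 CPM in Dp16 and 7.52, 9.89, 12.9 and 10.8 CPM in WT libraries. The carrier and non-carrier ranges met at a single pair, 5xFAD-Dp16 9 and WT 7, and the difference was 0.91 ± 0.10 (SE; 1.87-fold, adjusted p = 7.24e-06). Glb1 (beta-galactosidase), Idua (alpha-iduronidase, which acts on dermatan and heparan sulfate) and Fuca1 (alpha-fucosidase) rose by 0.35, 0.36 and 0.33 on the log2 scale. The call for Idua was not held in 11 of the 16 fits that left out 1 library, with an adjusted p of up to 0.0958. Manba (beta-mannosidase) stood at 0.26, Gla (alpha-galactosidase) at 0.11, Neu1 (sialidase) at -0.02 and Gaa (acid alpha-glucosidase, which degrades glycogen) at -0.13, and none of the 4 was called.

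None of the 5 sulfatases, which take sulfate groups from glycosaminoglycans and sulfatide, was called. Arsa (arylsulfatase A, which degrades the myelin lipid sulfatide; chr15:89472476-89477425, minus strand) came nearest. It had 39.9, 33.7, 38.2 and 34.8 CPM in 5xFAD-Dp16 and 37.3, 36.0, 34.6 and 33.2 CPM in 5xFAD libraries. It had 36.0, 33.0, 31.6 and 35.2 CPM in Dp16 and 27.3, 34.4, 28.6 and 25.5 CPM in WT libraries. WT 2, 7 and 16 stood below all other libraries, WT 4 and the Dp16 libraries overlapped with both amyloid groups, and the difference of carriers was 0.20 ± 0.07 (SE, adjusted p = 0.0717). Sgsh (heparan N-sulfatase), Galns, Arsb and Ids (iduronate sulfatase) lay between -0.14 and 0.16. Of the enzymes of heparan sulfate breakdown among the 39, the glycosidases Naglu, Gusb and Idua were called and the sulfatases Sgsh and Ids were not.

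Among lipid hydrolases 1 of 4 was called. Asah1 (acid ceramidase, chr8:41340197-41374773, minus strand) had 51.8, 47.8, 38.6 and 45.0 CPM in 5xFAD-Dp16 and 57.0, 40.01, 51.4 and 52.7 CPM in 5xFAD libraries. It had 32.3, 33.6, 35.4 and 39.5 CPM in Dp16 and 36.9, 39.7, 37.1 and 34.5 CPM in WT libraries. Only 5xFAD-Dp16 9 reached down into the range of the non-carriers, and the difference was 0.41 ± 0.08 (SE; 1.33-fold, adjusted p = 0.00211). Lipa (acid lipase, which hydrolyses cholesteryl esters) at 0.29 and Galc (galactosylceramidase of myelin breakdown) at 0.24 were not called, nor was Smpd1 (acid sphingomyelinase) at -0.07.

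Activators and cofactors diverged. Grn (progranulin, a secreted and lysosomal protein that is cut into granulins; chr11:102430315-102437048, plus strand) had 135, 109, 114 and 115 CPM in 5xFAD-Dp16 and 157, 142, 145 and 96.6 CPM in 5xFAD libraries. It had 63.2, 66.8, 67.1 and 56.7 CPM in Dp16 and 59.4, 54.0, 65.3 and 61.9 CPM in WT libraries. No carrier library came near the highest of the others, 5xFAD 15 was the lowest carrier, and the difference was 1.03 ± 0.07 (SE; 2.04-fold, adjusted p = 8.68e-08). Gm2a, which presents GM2 ganglioside for its breakdown, rose 1.31-fold (0.39 ± 0.05, adjusted p = 0.000139), and its carriers and non-carriers did not overlap. Psap, the highest of all 39 genes per length, stood at -0.00 ± 0.06 on the log2 scale with a 95% interval of -0.13 to 0.13.

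All 3 peptidases and thioesterases were called. Tpp1 (tripeptidyl peptidase, chr7:105744811-105752235, minus strand) had 92.4, 83.4, 75.7 and 86.4 CPM in 5xFAD-Dp16 and 93.8, 77.1, 98.8 and 73.5 CPM in 5xFAD libraries. It had 65.5, 65.4, 68.7 and 65.1 CPM in Dp16 and 68.1, 63.2, 78.3 and 64.0 CPM in WT libraries. Dp16 libraries lay below all carriers while WT 7 lay among them, and the difference was 0.33 ± 0.05 (SE; 1.26-fold, adjusted p = 0.000435). Scpep1 (serine carboxypeptidase, chr11:88924020-88955465, minus strand) had 21.9, 16.7, 16.8 and 15.6 CPM in 5xFAD-Dp16 and 25.3, 20.6, 27.8 and 22.2 CPM in 5xFAD libraries. It had 13.5, 11.49, 11.4 and 13.4 CPM in Dp16 and 10.1, 14.5, 16.8 and 15.04 CPM in WT libraries. The 5xFAD libraries were above the other 12 with the exception of 5xFAD-Dp16 1, which lay among them, and WT 7 overlapped with 5xFAD-Dp16. The difference was 0.63 ± 0.11 (SE, adjusted p = 0.000894). Ppt1 (palmitoyl-protein thioesterase) rose 1.18-fold, a call that was not held in 6 of the 16 fits that left out 1 library (adjusted p up to 0.0597).

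**Figure D2:**
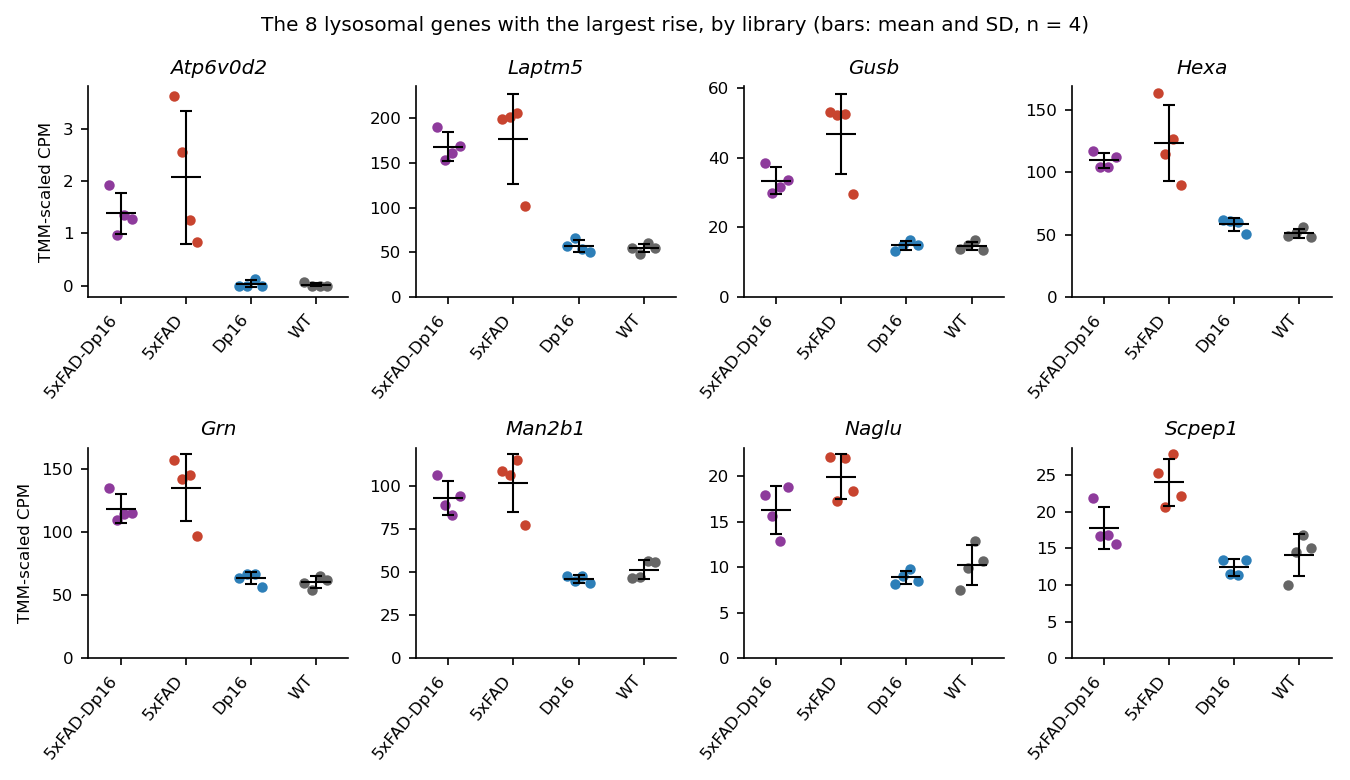
TMM-scaled CPM of the 8 genes with the largest rises in amyloid carriers (1 panel each), by group from 5xFAD-Dp16 to WT; points are libraries, and bars show the mean with the SD over 4 libraries. In 5xFAD the library with 29.7 CPM of Gusb is also the lowest for Laptm5 at 102 CPM.

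Of the 7 membrane proteins 5 were called. Laptm5, a membrane protein of lysosomes in blood-derived cells and microglia (chr4:130913125-130936141, plus strand), had 190.1, 153, 161 and 168 CPM in 5xFAD-Dp16 and 199, 201, 206 and 102 CPM in 5xFAD libraries. It had 57.0, 66.1, 54.2 and 49.9 CPM in Dp16 and 55.2, 48.4, 60.2 and 55.1 CPM in WT libraries. Carriers and non-carriers were far apart, and 5xFAD 15 was again the lowest carrier. The rise of Laptm5 was 1.62 ± 0.11 (SE; 3.08-fold, adjusted p = 5.70e-08). The score of microglial identity, a mean log2 level set to 0 at the WT mean, was likewise lowest among carriers in 5xFAD 15, at 0.59 against 1.15 to 1.43 in the other 3 5xFAD libraries.

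The other membrane proteins had smaller log2 differences than Laptm5. Lamp1, with 4 E-box cores before its start, rose 1.29-fold (0.37 ± 0.07, adjusted p = 0.00118), and its carrier libraries lay between 406 and 553 CPM, against 336 to 380 CPM in non-carriers (lowest and highest of 8 each, with no overlap). Lamp2, the receptor of chaperone-mediated autophagy in one of its forms, rose by 0.44 ± 0.10 and Scarb2, the transport receptor of glucocerebrosidase, by 0.23 ± 0.05. Cln3, the protein lost in juvenile Batten disease, rose by 0.43 ± 0.09 with no overlap between carriers and non-carriers. Mcoln1, the calcium channel of the lysosomal membrane, stood at -0.02 ± 0.04, and Ctns, the cystine exporter, at 0.25 ± 0.08 with an adjusted p of 0.0686.

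The proton pump subunits split by isoform. Atp6v0d2, a variant of the pump's d subunit best known from osteoclasts and macrophages (chr4:19876841-19922605, minus strand), had 44, 22, 28 and 28 counts in 5xFAD-Dp16 and 90, 63, 26 and 24 counts in 5xFAD libraries. It had 0, 0, 3 and 0 counts in Dp16 and 1, 0, 0 and 0 counts in WT libraries. Every carrier library held reads of this gene and 6 of the 8 others held none. Scaled to library size, carriers held 74.6 times the level of non-carriers, with an exact 95% interval of 28.8 to 275 that covers counting error only. The gene passed the filter on low counts only through the carrier groups, where it is high. Its edgeR adjusted p of 1.88e-06 is therefore given as a description and not as support. In 5xFAD the level was still 0.848 ± 0.52 RPKM (SD, n = 4), the lowest of the 39 genes.

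Atp6v0d1, the form of the same subunit used in most cells, stood at -0.10 ± 0.05 on the log2 scale and was not called. Atp6v1a and Atp6v1h, subunits of the part of the pump that splits ATP, stood at -0.21 ± 0.07 (adjusted p = 0.0686) and -0.10 ± 0.06. Carrier libraries had 405, 485 and 583 CPM of Atp6v1a (lowest, median and highest of 8), against 503, 565 and 646 CPM in non-carriers, so the ranges overlapped. In both 5xFAD-Dp16 against Dp16 and 5xFAD against WT, 3 of the 4 pump subunits were below 0. Of the excitatory neuron markers 9 of 9 were below 0 in carriers against non-carriers, with a median of -0.29, and 1 of them, Grin1, was called lower. The mean score of these markers, set to 0 at the WT mean, was 0.001 in 5xFAD-Dp16, -0.57 in 5xFAD and 0.05 in Dp16. Their summed level was 7690 to 10763 CPM in 5xFAD-Dp16, 3821 to 10605 in 5xFAD, 6906 to 11943 in Dp16 and 7330 to 10651 in WT libraries, with none of the 9 at 0, and their part in the pump values was not tested.

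Neither transcription factor was called. Tfeb (chr17:47737030-47792419, plus strand) had 11.9, 10.9, 11.3 and 10.6 CPM in 5xFAD-Dp16 and 14.97, 10.8, 10.96 and 18.3 CPM in 5xFAD libraries. It had 7.93, 10.96, 8.59 and 12.4 CPM in Dp16 and 8.94, 10.8, 9.93 and 9.08 CPM in WT libraries. The highest values were those of 5xFAD 15 and 5xFAD 6, and the other carriers lay within the range of Dp16. All carriers but 5xFAD-Dp16 11 lay above every WT library, 5xFAD 10 only just, at 10.814 CPM against 10.803 CPM in WT 4. The difference was 0.34 ± 0.12 (SE, adjusted p = 0.0975). Tfe3 stood at 0.01 ± 0.05 with a 95% interval of -0.10 to 0.12. These are levels of RNA, and the place of the proteins in the cell was not measured.

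The 6 libraries with high thalamus markers bear on the count. Without them fewer of the 19 genes were called, as were fewer of all genes tested. That fit has fewer libraries in each group and keeps 5xFAD 10 alone in its group. All 19 genes stayed above 0. Of the genes no longer called, Lamp2 stood at 0.27, Scarb2 at 0.14 and Scpep1 at 0.42 on the log2 scale, each over 1.5 times smaller than with all libraries. Idua at 0.29, Asah1 at 0.31 and Tpp1 at 0.28 were smaller to a lesser degree. Close to their values with all libraries were Fuca1 (0.31 against 0.33), Ppt1 (0.23 against 0.24) and Glb1 (0.35 in both). Cln3 was larger, at 0.56 against 0.43. With the thalamus score as a covariate, 19 of the 39 genes were called higher and 1 lower, against 1150 and 510 of all genes tested.

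The effect of the 5xFAD transgenes was next taken within each chromosomal background. In 5xFAD against WT, 16 of the 39 genes were called higher and 0 lower, against 5.31% and 1.96% of all genes, and the median was 0.32. In 18 genes the 5xFAD libraries were all above those of WT (7.62% of all genes). In 5xFAD-Dp16 against Dp16, 9 were called higher and 0 lower, against 2.99% and 0.035% of all genes, and the median was 0.24. Here 17 genes did not overlap and were higher, against 6.56% of all genes, and 1, Neu1, did not overlap and was lower, against 3.44%. The counts of called genes and of higher genes without overlap include Atp6v0d2 in both comparisons, which passed the filter only through the carriers. The 2 comparisons share no library.

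The 9 genes called in 5xFAD-Dp16 against Dp16 (Gusb, Hexa, Naglu, Man2b1, Gm2a, Grn, Tpp1, Laptm5 and Atp6v0d2) were all called in 5xFAD against WT. Another 7 were called only there, namely Glb1, Fuca1, Asah1, Ppt1, Scpep1, Lamp1 and Cln3, and the test of the difference between the effects, given below, called none of them. The direction was the same for 34 of the 39 genes. Without Atp6v0d2, whose fitted value depends on how counts of 0 are treated, the log2 effects of the other 38 genes had a Pearson correlation of 0.943 and a Spearman correlation of 0.872, as a description across genes that are not independent replicates. The fitted effect was larger in 5xFAD against WT for 26 of the 39 genes, though the difference between the effects was called for none of them. The order of the medians turned when the 6 thalamus-rich libraries were left out, with 0.27 in 5xFAD-Dp16 against Dp16 and 0.21 in 5xFAD against WT, where 5xFAD has a single library left.

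**Figure D3:**
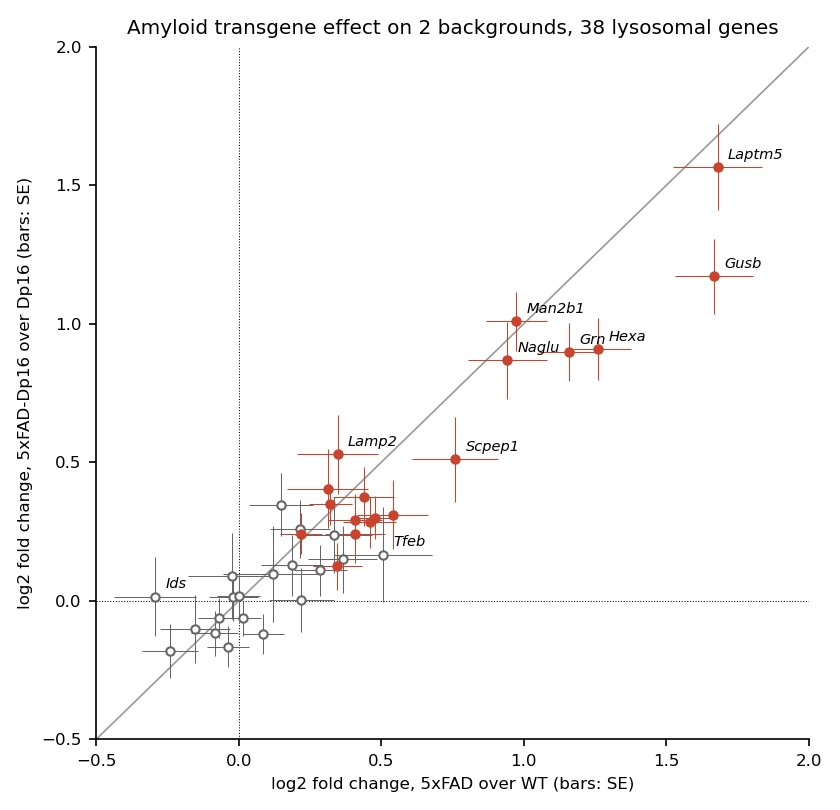
Log2 effect of the 5xFAD transgenes on each gene in 5xFAD-Dp16 against Dp16 (vertical axis) and in 5xFAD against WT (horizontal axis), for 38 genes without Atp6v0d2; bars are standard errors, filled red points are genes called in amyloid carriers, and the diagonal is the line of equal effects. Gusb stands at 1.17 and 1.67, below that line, and Man2b1 at 1.01 and 0.97, close to it.

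Gene by gene the spread of the effects differed. Gusb rose by 1.17 ± 0.14 in 5xFAD-Dp16 against Dp16 and by 1.67 ± 0.14 in 5xFAD against WT. Man2b1 rose by 1.01 ± 0.11 and 0.97 ± 0.11 in the same order, and Laptm5 by 1.57 ± 0.15 and 1.68 ± 0.16. Lamp2 was called in neither, at 0.53 ± 0.14 (adjusted p = 0.0655) and 0.35 ± 0.14 (adjusted p = 0.149). Atp6v0d2 held 41.2 times the Dp16 level in 5xFAD-Dp16, with an exact interval of 13.8 to 203, and 169 times the WT level in 5xFAD, with an interval that starts at 30.002 and ends at 6710 and that rests on a single WT count.

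The number of called genes varied more with the libraries and the fit in 5xFAD against WT than in 5xFAD-Dp16 against Dp16. It was 6 without the libraries of high thalamus markers, a fit that keeps 5xFAD 10 as the only library of its group and assumes that it varies like the other groups, 10 without WT 2 and 9 when only these groups were fitted. In every fit run, Gusb, Hexa, Man2b1, Grn and Laptm5 were called in both comparisons. Atp6v0d2 was too, but it passed the filter on low counts only through the carriers, so its calls are given as a description and not as support.

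Dp16 mice were then set against WT to ask what the duplication does to these genes. No gene of the 39 was called in either direction by edgeR, and DESeq2 called 0. Over all genes edgeR called 0.222% higher and 0.00584% lower, and DESeq2 0.378% and 0.0806%. The median was 0.01. Lamp2 (chrX:38401357-38456454, minus strand) had 62.9, 69.4, 67.4 and 76.7 CPM in Dp16 and 75.04, 89.9, 115 and 83.2 CPM in WT libraries, which overlapped at Dp16 14 and WT 2. Its difference was -0.39 ± 0.14 (SE, adjusted p = 0.724), and that of Arsa, the gene of next smallest p, was 0.23 ± 0.09 (adjusted p = 0.778). All 10 markers of the choroid plexus, a tissue next to the hippocampus, were also below 0 in Dp16 against WT, with a median of -3.45 and 0 called. They summed to 51.5 to 967 CPM in Dp16 and 464 to 8282 CPM in WT libraries. WT 7 was the highest of its group for both these markers and Lamp2, and WT 2 the lowest for both, whereas among Dp16 libraries Dp16 5 was the highest for the markers and Dp16 14 for Lamp2. The part of choroid plexus in the Lamp2 values was not tested. Atp6v0d1 was the only gene of the 39 without overlap, with 205 to 217 CPM in Dp16 and 175 to 204 CPM in WT libraries, against 2.41% of all genes that were higher without overlap.

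**Figure D4:**
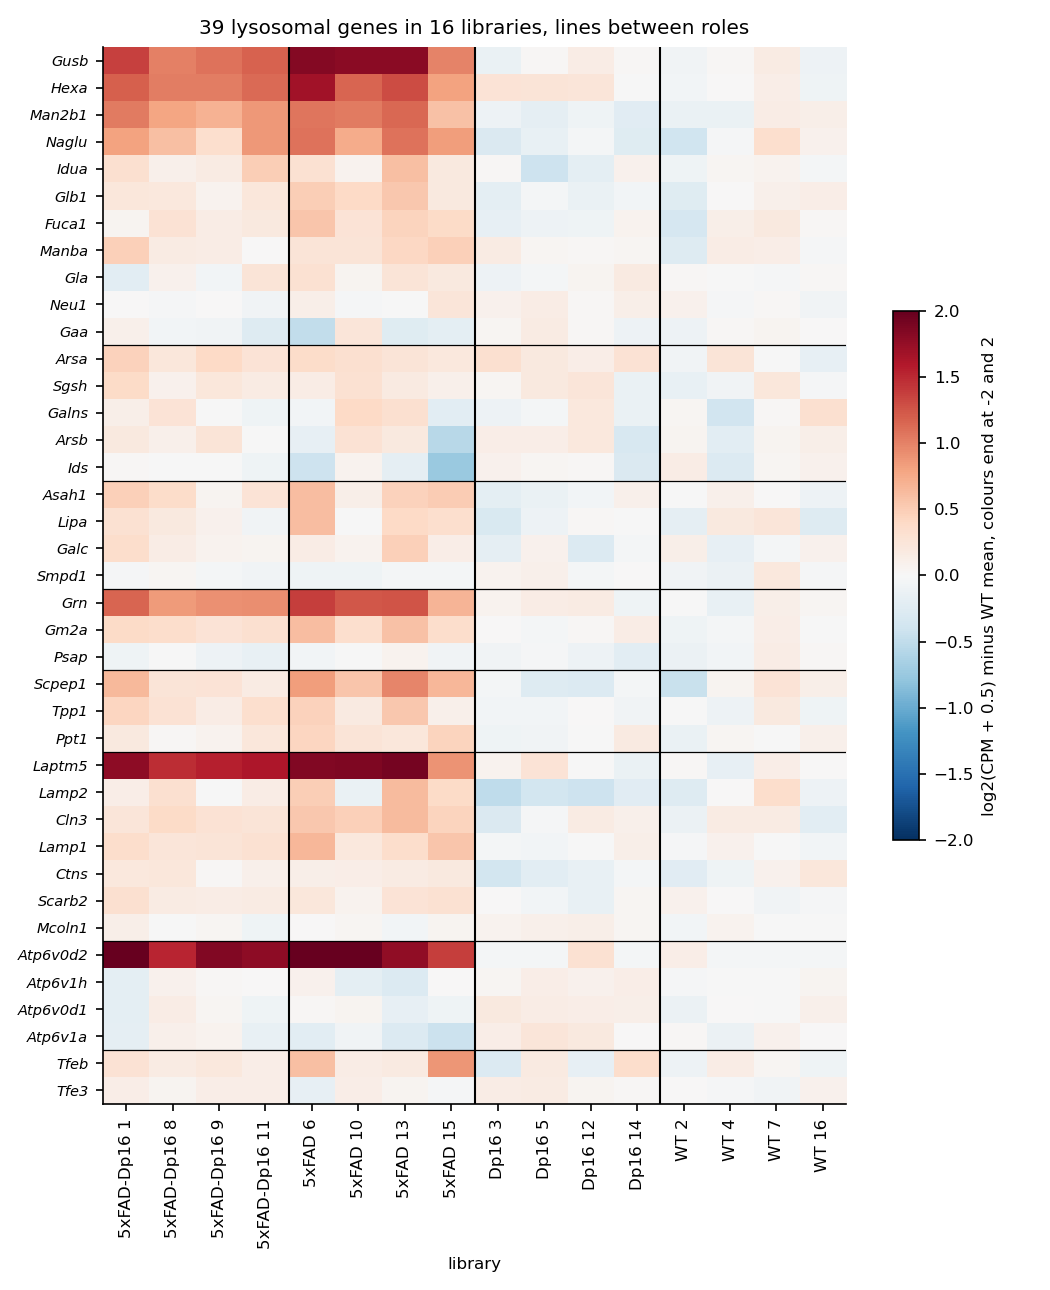
Log2 level of each of the 39 genes (rows, by role) in each of the 16 libraries (columns, from 5xFAD-Dp16 to WT), as the difference from the gene's WT mean. The carrier columns stand apart from the others in Gusb, Hexa, Man2b1, Grn, Laptm5 and Atp6v0d2, which are among the 9 genes without overlap between carriers and non-carriers.

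On the amyloid background the duplication was tested as 5xFAD-Dp16 against 5xFAD. edgeR called 0 of the 39 genes, against 0.245% of all genes called higher and 0.0584% lower. DESeq2 called 0 higher and 1 lower, against 4.65% and 2.21% of all genes. The values leaned downwards, with 28 of 39 below 0 and a median of -0.11, against -0.03 over all genes tested. Markers of several cell types and of other tissue leaned with them, with 0 called: plaque-associated microglia were below 0 for 10 of 10 (median -0.52), microglial identity for 10 of 12 (-0.28), oligodendrocytes for 9 of 9 (-0.32), thalamus for 11 of 11 (-0.75) and choroid plexus for 10 of 10 (-0.90). Excitatory neuron markers were above 0 for 9 of 9 (median 0.41), and the part of these markers in the members' values was not tested. The median of the 39 genes was -0.04 when the 6 thalamus-rich libraries were left out. The smallest p-values of the 39 were those of Gusb, Scpep1, Ppt1, Glb1, Fuca1 and Naglu, all lower in 5xFAD-Dp16. Their edgeR adjusted p ran from 0.111 to 0.252. Cln3 was the 1 gene whose libraries did not overlap, at 10.3 to 11.4 CPM in 5xFAD-Dp16 and 11.9 to 13.6 CPM in 5xFAD (3.89% of all genes were lower without overlap).

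Gusb had the smallest p of the 39 genes in that comparison, with a log2 difference of -0.48 ± 0.13 (95% interval -0.76 to -0.20) and an adjusted p of 0.111. The difference was made smaller by 5xFAD 15, whose 29.7 CPM lay at the level of the 5xFAD-Dp16 libraries printed above. Without that library the difference was -0.63 and the edgeR adjusted p 0.00303. Of the 8 fits that left out 1 library, only this one called Gusb. The others gave edgeR adjusted p-values from 0.0758 (-0.36, without 5xFAD 10) to 0.336 (-0.45, without 5xFAD 6). With only these groups fitted the edgeR adjusted p was 0.363, and with no filter on low counts it was 0.00425. The gene DESeq2 called was Gusb (-0.46, adjusted p = 0.0425). Over the 16 fits that left out 1 library, the interaction of the genotypes for Gusb lay between -0.64 and -0.37.

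The interaction itself, which is the effect of the transgenes in Dp16 mice minus that in WT mice, was called for 0 of the 39 genes by edgeR and for 0 by DESeq2, against 0% of all genes. With edgeR the smallest p-values of the 39 were those of Gusb at -0.50 ± 0.19 and Hexa at -0.35 ± 0.16, both with an adjusted p of 0.718. At 4 libraries a group, a p that misses the threshold does not show that the effects are equal: the 95% interval for Gusb ran from -0.90 to -0.09, and that for Laptm5 from -0.57 to 0.34.

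Between females and males edgeR called 0 of the 39 genes, and DESeq2 called 0. Over all genes edgeR called 0.035% higher in females and 0.0292% lower, and DESeq2 0.14% and 0.035%. The smallest p-values of the 39 were those of Gusb, Hexa, Naglu, Grn, Tpp1 and Laptm5, which were higher in females by 0.19 to 0.24 on the log2 scale. Tpp1 had the smallest adjusted p at 0.62 (edgeR). All 12 microglial identity markers also lay above 0 in females, with a median of 0.24 and 0 called. Lamp2, Ids, Gla and Tfe3, which lie on the X chromosome, stood at 0.13, 0.07, 0.04 and -0.03.

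Other genes of the lysosome, none of them among the 39 and with cathepsins again left out, gave the setting for these values. Of a list of 27 further enzymes, which also holds Npc2, not itself an enzyme, 12 genes were called higher in amyloid carriers and 0 lower, with a median of 0.30. They include Dnase2a, which degrades DNA, at 1.26 ± 0.13, the cholesterol carrier Npc2 at 0.89 ± 0.09 and the asparaginyl peptidase Lgmn at 0.68 ± 0.06. Of 26 further membrane proteins 6 were higher and 1 lower, with a median of 0.07. For both lists the shares over all genes tested were 6.61% called higher and 1.98% lower. The largest were Cd68, a membrane glycoprotein of phagocytes, at 2.65 ± 0.17 and Slc11a1, a metal transporter of phagocytes, at 2.50 ± 0.14, followed in p by Slc29a3 at 0.50 ± 0.08 and Cd63 at 0.79 ± 0.13.

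Genes of the pump and of the control of the pathway were called at most 1 per list and direction. With lists this short, that is near the shares over all genes tested, 6.61% called higher and 1.98% lower. Of 16 further pump subunits 1 was called, Tcirg1, the a3 form best known from osteoclasts, which rose by 1.03 ± 0.10, and the median of the 16 was -0.10. Of 24 genes of enzyme sorting and of TFEB control 1 was called higher, Nagpa, which uncovers the mannose 6-phosphate tag of lysosomal enzymes (0.39 ± 0.07), and 1 lower, Mtor, the kinase that keeps TFEB in the cytosol (-0.22 ± 0.06). Their median was 0.06, with values from -0.33 to 0.39.

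**Figure D5:**
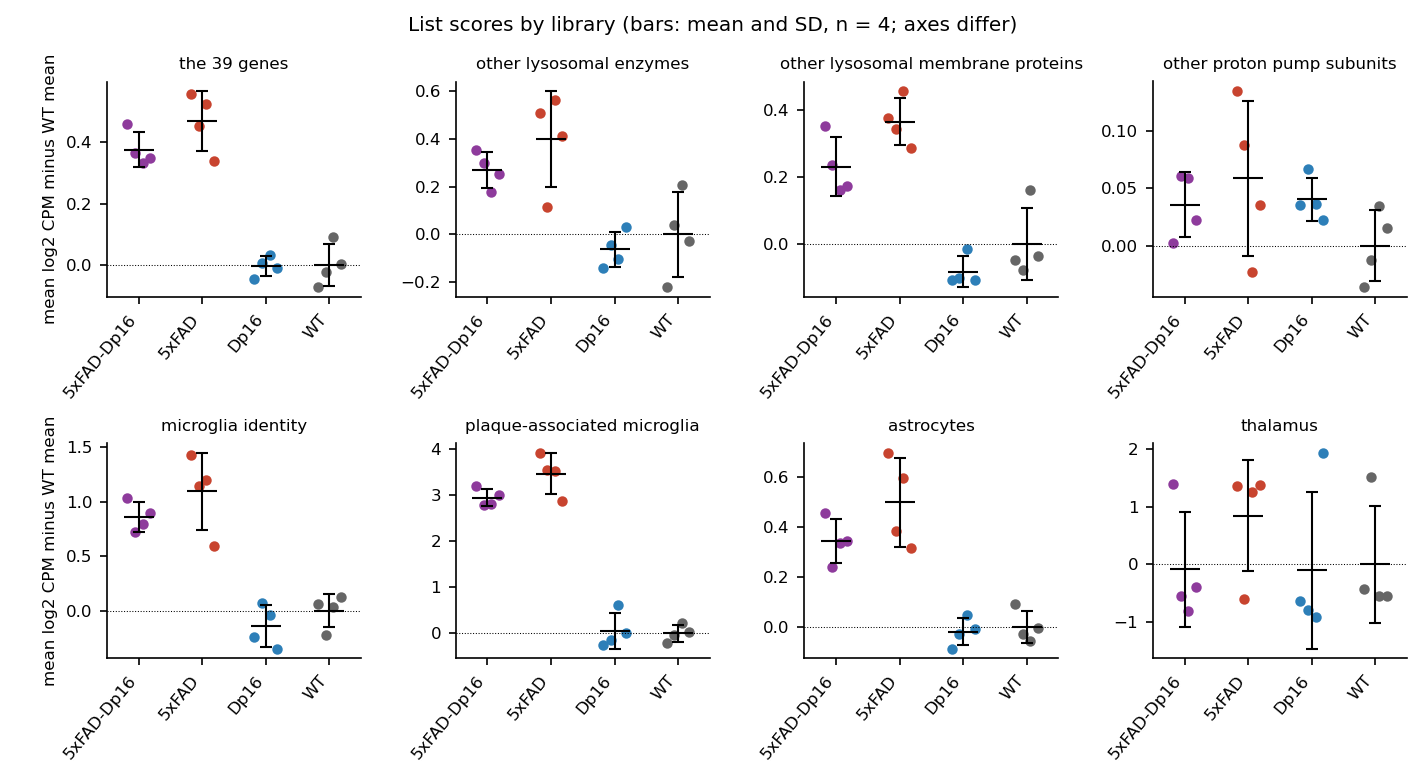
Score of each gene list (mean log2 level minus the WT mean) in every library, by group from 5xFAD-Dp16 to WT; points are libraries, bars show the mean with the SD over 4 libraries, and the axes differ between panels. The score of the 39 genes lay at 0.33 to 0.46 in 5xFAD-Dp16 and 0.34 to 0.56 in 5xFAD, against -0.05 to 0.03 in Dp16 and -0.07 to 0.09 in WT.

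Markers of other cells in the tissue were read in the same comparison of amyloid carriers with non-carriers. All 10 markers of plaque-associated microglia were called higher, with a median of 2.74, and summed to 472 to 615 CPM in 5xFAD-Dp16, 523 to 992 in 5xFAD, 171 to 189 in Dp16 and 178 to 209 in WT libraries. None of the 6 border macrophage and monocyte markers that passed the filter was called by edgeR, at a median of 0.43, and their list of 8 summed to 5.94 to 19.2, 8.95 to 20.6, 4.33 to 10.99 and 7.21 to 17.1 CPM in the same order of groups, with Ccr2 at 0 in at least 1 library. Of 10 astrocyte markers 5 were higher, led by Gfap at 1.90 ± 0.10, and of 9 oligodendrocyte markers 1, Cldn11, was called higher, while all 9 lay above 0 with a median of 0.37. Which cells the lysosomal RNA came from was not measured.

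Counts of some members could include reads of a neighbour. Exons of 13 of the 39 genes share bases with those of another gene, in 12 cases on the opposite strand, and the strand setting of the authors' counting is not given in the sources used here. The shares include 12.8% of the exon bases of Hexa (with Tmem202), 9.31% of Lamp1 (Grtp1), 7.65% of Cln3 (Apobr), 4.58% of Scpep1 (Scpep1os), 1.96% of Grn (Fam171a2) and, as the largest, 32.3% of Arsb. Glb1 shares bases with Tmppe on the same strand.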

How the data were processed

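RNA of the hippocampus was isolated with TRIzol and made into strand-specific polyA libraries (Tecan/Nugen Universal Plus mRNA kit), sequenced as 150 bp pairs, per the labels' protocols. Tools named in the submitters' processing notes are HISAT2 2.1.0, HTSeq 0.6.1, SAMtools 1.5, FastQC 0.11.5 and bcl2fastq, with GRCm38 as genome build. What each tool did and the strand setting are not given in the sources used here. The authors deposited raw read counts per gene. They also deposited RPKM values, which were checked against the counts: each equals count over column total over 1 length per gene.

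The edgeR 4.0.16 fit (R 4.3.3) used filterByExpr by group with a minimum count of 10 (17132 genes), TMM scaling (factors 0.944 to 1.13), and a robust quasi-likelihood fit of group and sex to all 16 libraries. P-values were adjusted over all genes tested (Benjamini-Hochberg, threshold 0.05). SE is the log2 difference divided by the root of its F statistic, and 95% intervals use the fit's degrees of freedom. Alternatives were DESeq2 1.42.0, relative log expression scaling, limma 3.58.1 on log2(RPKM + 0.1) and log2(RPKM + 1), no filter on low counts, no sex term, a thalamus score as covariate, fits without the libraries of high thalamus markers, fits of only the groups compared, and fits leaving out each library. Depth sets the precision, and single counts such as those of Atp6v0d2 have exact intervals for counting error only.

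Values in every library are given for the 8 genes called in amyloid carriers with the largest log2 difference and for the gene of smallest p in each role, with Lamp2, Atp6v1a, Lamp1, Atp6v0d1 and Cln3 added by range or value after their values were seen. The hippocampal genes Prox1, C1ql2 and Wfs1 were added in the same way. The 39 members and all gene lists were chosen with earlier results of these data known. The submitters count 4 mice per group, so libraries were taken as separate animals. Where that does not hold, p-values measure only the spread between these samples. Gene positions are from GENCODE M21 on GRCm38.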

Additional observations from a re-analysis of the deposited data

Results flagged for a closer look

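In groups of 4, the highest or lowest library was tested for standing apart from the other 3 (Dixon's ratio at its 95% limit). Of 156 sets, 39 genes in 4 groups, 11 stood out, or 7.05%, where chance gives about 1 in 20.

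5xFAD 15 stood apart by this ratio for 2 of the genes with the largest rises. Its Gusb level was 29.7 CPM, against 52.2 to 53.2 CPM in the other 5xFAD libraries, and its Laptm5 level was 102 CPM, against 199 to 206. Without passing the limit, it was also the lowest carrier for Hexa (89.7 CPM), Man2b1 (77.1), Grn (96.6) and Atp6v0d2 (0.843), but not for Naglu and Scpep1. In the same library the score of microglial identity was the lowest among carriers, and its part in these values was not tested.

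Other 5xFAD-Dp16 and 5xFAD values were those of Glb1 in 5xFAD-Dp16 9 at 24.2 CPM (others 26.5 to 26.9), Scarb2 in 5xFAD-Dp16 1 at 224 CPM (others 200.4 to 201.7) and Galc in 5xFAD 13 at 36.9 CPM (others 27.7 to 29.2). Among Dp16 libraries, Hexa was at 50.7 CPM in Dp16 14 (others 60.1 to 61.5), Manba at 12.6 CPM in Dp16 3 (others 11.3 to 11.51) and Tpp1 at 68.7 CPM in Dp16 12 (others 65.1 to 65.5). Atp6v1h was at 122 CPM in WT 16 (others 116.4 to 116.9). Atp6v0d2 was at 0.134 CPM in Dp16 12 and 0.0617 CPM in WT 2, from 3 reads and 1 read, where the other libraries of those groups had 0.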

How the results depend on the processing

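No result changed direction in any alternative in which it was called. Leaving out 1 library gave 10 to 21 members higher and 0 to 3 lower in 5xFAD against WT (16 and 0 in the reported fit), 7 to 11 higher in 5xFAD-Dp16 against Dp16 (9), and 17 to 23 higher and 0 to 2 lower in amyloid carriers (19 and 0). In 5xFAD-Dp16 against 5xFAD it gave 0 to 1 higher (Ids, without 5xFAD 10) and 0 to 1 lower (Gusb, without 5xFAD 15), against 0 and 0. Without the libraries of high thalamus markers, fewer members were called higher in 5xFAD against WT and in amyloid carriers, as were fewer of all genes. In that fit Gusb was called lower in 5xFAD-Dp16 against 5xFAD, at -0.77 on the log2 scale. There 5xFAD has 1 library, assumed to vary like the others. With only the groups compared, 9 were higher in 5xFAD against WT. DESeq2 called 1 lower in amyloid carriers (Atp6v1a) and 1 lower in 5xFAD-Dp16 against 5xFAD (Gusb), and the thalamus covariate called 1 lower in amyloid carriers (Atp6v1a). With no filter on low counts, 2 were lower in 5xFAD-Dp16 against 5xFAD (Gusb and Scpep1) and 1 lower in Dp16 against WT (Lamp2, -0.39). For the interaction and the sex difference 0 members were called in every alternative run. Fewer samples enter the fits that leave libraries out; for the others the cause was not tested. Over all genes, 340 lower in amyloid carriers became 1051 with DESeq2, 48 without the thalamus libraries, and 118 to 1673 over the fits leaving out 1 library. In 5xFAD against WT 909 higher and 335 lower became 486 and 30 with only those groups and 1622 and 1864 without 5xFAD 10, and in 5xFAD-Dp16 against 5xFAD 42 higher and 10 lower became 488 and 232 with DESeq2 and 1308 and 737 without 5xFAD 10. With no filter on low counts, 42 higher and 10 lower in 5xFAD-Dp16 against 5xFAD became 910 and 746, 1 lower in Dp16 against WT became 279, 0 and 0 for the interaction became 172 and 118, and 6 and 5 for females against males became 168 and 162. The interaction called 3 higher and 12 lower when the thalamus-rich libraries were left out. No paired analysis was possible because the numbers in the titles are unique to each library and the groups share none.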
